A study of Mus musculus with 12 samples.

Results

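Rasd1 and 8 genes of the RGS family, Rgs1, Rgs2, Rgs3, Rgs10, Rgs14, Rgs16, Rgs18 and Rgs19, were followed in mouse megakaryocytes exposed to dexamethasone, a synthetic glucocorticoid. These 9 genes, of 30142 that the array's annotation named, were selected on earlier results of the same contrast between dexamethasone and vehicle, in which Rasd1 had the largest rise and Rgs16 one of the largest falls. Their changes with dexamethasone are therefore given as a description, without p-values. Each of the 9 symbols belonged to 1 probe set, so no choice between probe sets was needed, and all 9 passed the filter on low values.

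The cells came from bone marrow hematopoietic stem cells of male C57BL/6 mice, whose age is not given in the labels. They were grown in vitro for 3 days with thrombopoietin at 100 ng/ml, held overnight in medium containing 10% charcoal-stripped serum, and purified on day 4 over an albumin gradient. The 6 cultures were each divided, 1 share receiving 100 nM dexamethasone and the other its vehicle for 6 h, which gave 6 arrays per treatment and 12 in all. Culture 1 to 6 means here the replicate number. The labels also number these cultures, as 1, 4, 5, 6, 7 and 8 in that order, so cultures 2 and 3 here are 4 and 5 there. Whether the cultures came from separate mice is not stated. No genotype other than the strain is given, and both groups share the thrombopoietin culture and the stripped serum.

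G proteins relay signals from cell surface receptors: the receptor loads GTP onto the alpha subunit, and the signal lasts until that GTP is hydrolysed. RGS proteins speed up the hydrolysis and so shorten the signal, and platelets and megakaryocytes use them to restrain receptors for agonists such as thrombin and ADP and for chemokines. Rasd1, also called Dexras1, is a Ras-like GTPase named for its induction by dexamethasone, which acts on inhibitory G proteins without a receptor and is linked to nitric oxide synthase by the adaptor Nos1ap.

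Promoter sequences were available from RefSeq for 5 of the 9 genes, as 8 windows of 300 bases that run from 250 bases before to 50 after an annotated start. Rasd1, Rgs1, Rgs14 and Rgs18 had no window, and windows of the same gene can overlap, as for Rgs19. Those of Rgs16, which had the largest fall of the 9, of Rgs10, which was higher in every culture, and of Rgs2, the one with motif matches among these 3, are shown from build GRCm38.p6, 5′ to 3′. Capitals mark the letters TGACG or their reverse complement, the core of the cAMP response element. A glucocorticoid receptor half-site, AGAACA or its reverse complement, was searched as well.

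Rgs16, chr1:153740103-153740402, plus strand: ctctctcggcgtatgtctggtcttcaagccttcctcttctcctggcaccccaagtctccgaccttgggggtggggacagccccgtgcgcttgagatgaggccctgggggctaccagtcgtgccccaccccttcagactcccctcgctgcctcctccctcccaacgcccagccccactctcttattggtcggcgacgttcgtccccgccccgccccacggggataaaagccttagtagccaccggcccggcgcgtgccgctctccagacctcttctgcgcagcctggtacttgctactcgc

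Rgs10, chr7:128418123-128418422, minus strand: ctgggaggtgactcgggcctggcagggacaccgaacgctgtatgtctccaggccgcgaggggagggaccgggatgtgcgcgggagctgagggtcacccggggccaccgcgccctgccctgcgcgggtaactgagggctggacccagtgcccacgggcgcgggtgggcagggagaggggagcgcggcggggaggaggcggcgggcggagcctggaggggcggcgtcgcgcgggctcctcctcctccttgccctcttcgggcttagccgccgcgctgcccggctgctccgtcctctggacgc

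Rgs2, chr1:144004100-144004399, minus strand: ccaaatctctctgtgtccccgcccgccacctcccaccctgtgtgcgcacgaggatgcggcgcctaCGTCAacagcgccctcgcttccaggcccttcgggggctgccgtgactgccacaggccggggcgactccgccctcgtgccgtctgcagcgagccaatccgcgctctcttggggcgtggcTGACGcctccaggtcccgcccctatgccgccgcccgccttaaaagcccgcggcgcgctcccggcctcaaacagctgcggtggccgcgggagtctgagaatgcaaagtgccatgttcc

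Neither the Rgs16 nor the Rgs10 window held any of these letters. The half-site occurred in 3 of the 8 windows, both windows of Rgs3 and 1 of the 3 windows of Rgs19, beside 19.0% of 32851 windows of this length in the table. The half-site on both strands with 3 bases between, AGAACA then TGTTCT, was in none of the 8 and in 0.00913% of all windows. The cAMP element core occurred 2 times in the Rgs2 window and in no other, beside 20.8% of all windows. GC content was 66% in the Rgs16 window, 76.0% in that of Rgs10 and 70.0% in that of Rgs2, against a median of 52.7% over all windows. In that assembly Rgs2, Rgs13, Rgs1, Rgs21 and Rgs18 are consecutive protein-coding genes, and Rgs16 lies next to Rgs8.

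All levels below are the deposited log2 values, on which a step of 1 is a doubling, and all changes are dexamethasone minus vehicle on that scale. The median of the arrays' negative control probe sets lay between 6.15 and 6.39 and their 95th percentile between 9.98 and 10.39, and both serve as marks of background. Tsc22d3 and Fkbp5, known glucocorticoid targets, rose 5.57-fold and 5.19-fold in 6 of 6 cultures (adjusted p = 7.49e-08 and 7.52e-07, limma). Fkbp5 passed that 95th percentile on no array, and Tsc22d3 passed it on the 6 dexamethasone arrays only. All 9 megakaryocyte markers with a value lay above the negative control median on every array, among them Itga2b at 15.37 ± 0.05 in vehicle and 15.51 ± 0.07 in dexamethasone (SD, n = 6). Of these 9, 1 rose and 1 fell (3 higher and 2 lower at an unadjusted p under 0.05). Tubb1, the tubulin of the platelet rim, fell from 13.38 ± 0.39 to 12.24 ± 0.47, 2.21-fold (adjusted p = 4.71e-06, limma), and Gp9, a subunit of the von Willebrand factor receptor, rose 1.35-fold (adjusted p = 0.00143, limma), each in 6 of 6 cultures without overlap. Of 10 neutrophil markers, 4 fell and none rose (0 higher and 6 lower at an unadjusted p under 0.05). They were S100a8 and S100a9 (adjusted p = 0.0474 and 0.0292, limma) and Camp and Ltf (adjusted p = 0.00565 and 0.00107, limma). The groups of all 4 overlapped, and Ltf read below the negative control median on 4 vehicle and all 6 dexamethasone arrays. The list had a mean level of 6.92 to 7.83 in vehicle and 6.42 to 7.54 in dexamethasone. In vehicle S100a8 and S100a9 averaged 12.36 and 12.54 and the others 5.10 to 7.51. Elane and Csf3r were at background, below the negative controls' median, throughout. Of 8 monocyte and macrophage markers 1 fell, Ccr2, which all 6 dexamethasone arrays read at background. That call was lost with values floored at the negative control median (adjusted p = 0.0605, limma, over a range of 0.00034 to 0.0605). The mean level of this list was 7.55 to 7.72 in vehicle and 7.39 to 7.66 in dexamethasone. Lyz2 was far above the rest, at 17.46 ± 0.10 and 17.52 ± 0.06. The other markers of the list averaged 5.43 to 7.16 in vehicle, with no array above the negative controls' 95th percentile. Csf1r and Mrc1 lay below background on all arrays. Of 4 mast cell and basophil markers tested 1 rose and 1 fell, with a mean level of 6.18 to 6.40 in vehicle and 6.20 to 6.53 in dexamethasone, and Fcer1a and Ms4a2 were at background throughout. Cpa3, a mast cell protease, rose 1.56-fold in 6 of 6 cultures without overlap (adjusted p = 0.00146, limma). Mcpt8, a basophil protease, fell by 0.28 (adjusted p = 0.0407, limma, over a range of 0.016 to 0.124), and that call was lost without culture 1, 2, 3, 4 or 6, without cultures 2 and 3, after centring, without the filter and without the culture block. Of 6 lymphocyte markers with a value, 5 were below it on all arrays. Whether these other cells had a part in the changes of the 9 genes was not tested, and in bulk RNA fewer cells of a type and less RNA per cell cannot be told apart.

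Rasd1 went from background to a bright signal in every culture. In vehicle its lowest, median and highest values were 5.96, 6.41 and 6.55, and in dexamethasone 10.91, 12.02 and 12.21. The groups were far apart: vehicle culture 6 lay below the negative control median and the other 5 just above it, whereas all 6 dexamethasone arrays lay above the 95th percentile. The mean was 6.34 ± 0.24 in vehicle and 11.81 ± 0.51 in dexamethasone (SD, n = 6), a change of 5.46 ± 0.41. Since the vehicle arrays were at background this is given as a lower bound, at least 42.6-fold, with a vehicle array under its negative control median raised to it. The change was the largest rise among 24265 genes tested.

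The measured changes were 5.63, 5.87, 5.89, 5.45, 4.99 and 4.96 in cultures 1 to 6. As lower bounds they were at least 25.1-fold in culture 6, whose vehicle array was raised to its negative control median, and at least 31.7-fold to 59.1-fold in the other 5. The bounds give no order of induction among the cultures. Culture 6 was lowest for Rasd1 both before and after treatment. With every array floored at its negative control median the mean change was 5.41, and over all 16 alternative settings it ran from 5.26 to 5.56.

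Rgs16, which limits signalling through Gi and Gq coupled receptors, including chemokine receptors, was lower in every culture. Its lowest, median and highest values were 9.27, 9.67 and 10.03 in vehicle and 8.07, 8.54 and 8.66 in dexamethasone. The groups did not overlap, and all 12 arrays lay between the negative control median and its 95th percentile. The mean went from 9.66 ± 0.29 to 8.45 ± 0.22 (SD, n = 6), a change of -1.22 ± 0.38, or 2.32-fold lower, the 4th largest fall of all genes tested. By culture the changes were -1.04, -1.37, -1.84, -0.68, -1.12 and -1.23 for cultures 1 to 6. Culture 3 had the largest fall, 3.59-fold, and culture 4 the smallest, 1.61-fold.

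Rgs10, which acts on Gi-type alpha subunits and is abundant in platelets, showed a small and even rise. Its values were 12.47 to 12.54 in vehicle, with a median of 12.52, and 12.63 to 12.72 in dexamethasone, with a median of 12.70. The groups were narrow and separate. The change was 0.18 ± 0.04 (SD, n = 6), 1.14-fold, and ran from 0.11 in culture 1 to 0.24 in culture 6. All 12 arrays lay above the 95th percentile of the negative controls.

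Rgs18, the RGS protein best known from megakaryocytes and platelets, was bright on all arrays. It was 17.10, 17.16 and 17.36 at the lowest, median and highest in vehicle and 17.01, 17.08 and 17.23 in dexamethasone. The groups overlapped, although every culture was lower with dexamethasone. The change was -0.09 ± 0.07 (SD, n = 6), from -0.001 in culture 4 to -0.20 in culture 3. Culture 3 thus had the largest fall, culture 2 the next and culture 4 the smallest for both Rgs18 and Rgs16, which were measured on the same arrays.

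Rgs2, which prefers Gq and is itself induced by many receptor signals, and Rgs1, a lymphocyte and myeloid member that dampens chemokine receptors, overlapped between treatments. Rgs2 was 7.35, 7.61 and 8.02 at the lowest, median and highest in vehicle and 7.16, 7.42 and 7.69 in dexamethasone. Its change was -0.24 ± 0.21 (SD, n = 6), lower in 5 of 6 cultures, and culture 4 was higher by 0.09. Rgs1 was 8.52, 8.88 and 9.16 in vehicle and 8.41, 8.81 and 8.997 in dexamethasone. Its change was -0.11 ± 0.09 (SD, n = 6), lower in 5 of 6 cultures. For both genes the mean change exceeded the SD of the 6 changes but did not pass the threshold in the fit across all genes.

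The remaining members were at or under background. Rgs19, also known as GAIP, lay above the negative control median on all 12 arrays but below their 95th percentile, at 6.44 ± 0.13 and 6.48 ± 0.10 (SD, n = 6), and was higher with dexamethasone in 3 of 6 cultures. Rgs3, which has long and short isoforms, ran from 5.39 to 5.59 in vehicle and from 5.42 to 5.60 in dexamethasone. Rgs14, which carries a second G protein binding motif, ran from 5.66 to 5.85 and from 5.62 to 5.79. Each of the 12 arrays read both genes lower than the median of its negative controls, so only a bound is known for them and no fold is given.

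**Figure D1:**
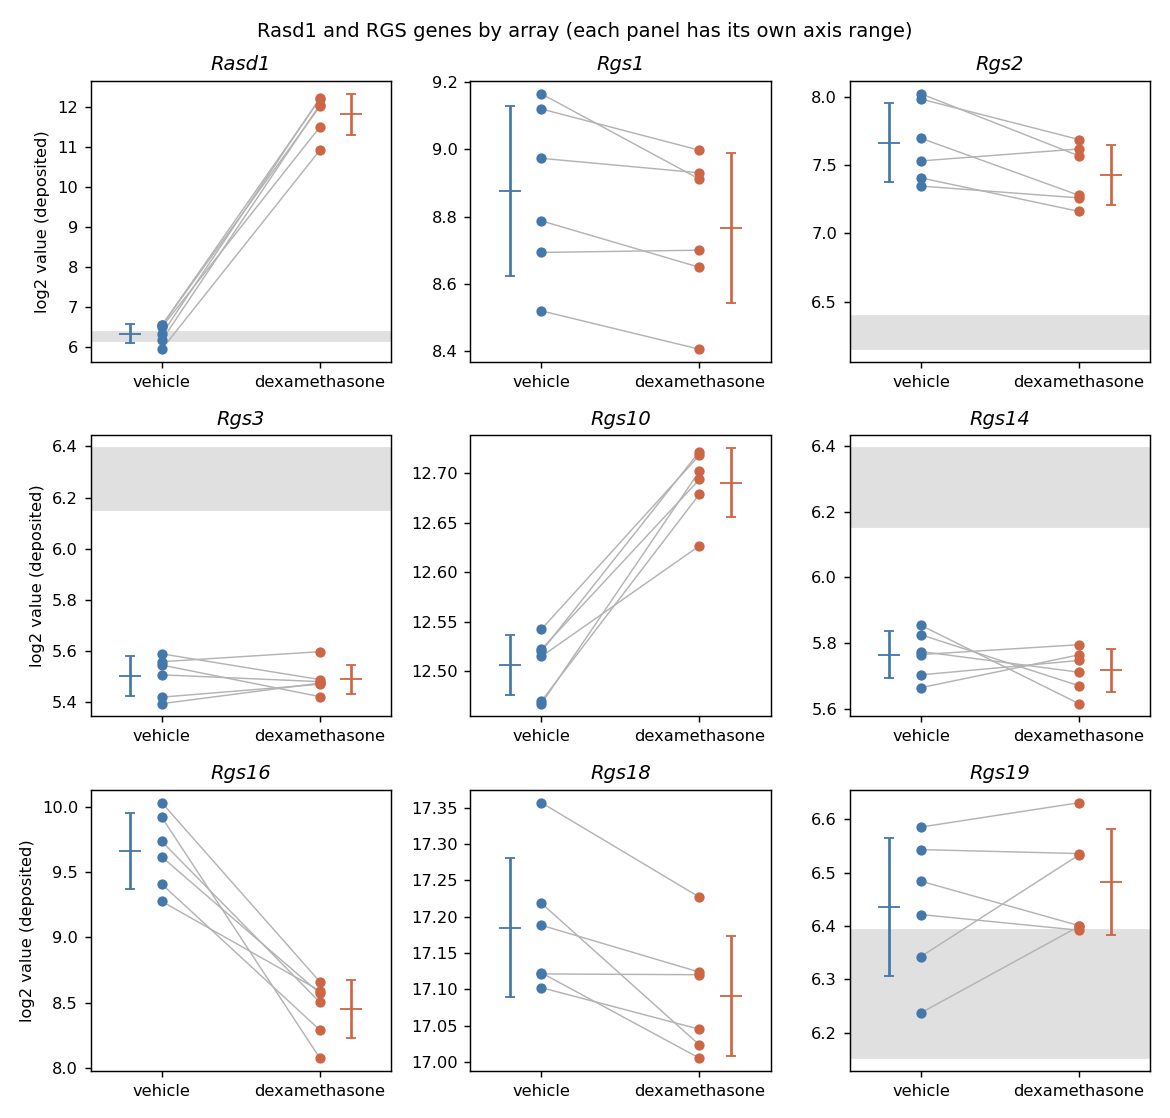
Deposited log2 value of each of the 9 genes on the 12 arrays, with a grey line joining the vehicle (blue) and dexamethasone (orange) arrays of a culture and bars giving mean ± SD (n = 6); the grey band, drawn where it falls near the values, is the range of negative control medians over the 12 arrays, 6.15 to 6.39. Rasd1 leaves the band for 10.91 to 12.21, Rgs16 falls and Rgs10 rises without overlap of the groups, and Rgs3 and Rgs14 stay under the band.

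In the fit across all genes, 3 of the 9 were past the threshold of an adjusted p under 0.05, Rasd1 and Rgs10 higher and Rgs16 lower, beside 12.0% of all genes tested in either direction, 7.39% higher and 4.56% lower. The same 3 were those whose groups did not overlap, which held for 6.73% of all genes tested. Since this contrast chose the genes, nothing is read from these counts. The median change of the 9 was -0.05, and that of all genes tested was -0.01. The call of Rgs10 was lost without culture 2, 3, 4, 5 or 6 and without cultures 2 and 3 together, with changes near that of all cultures (0.15 to 0.21 over all 16 settings). Rgs2 passed without culture 4, with values floored at the negative control median, among genes above that median, and, with Rgs1 and Rgs18, after quantile normalization.

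**Figure D2:**
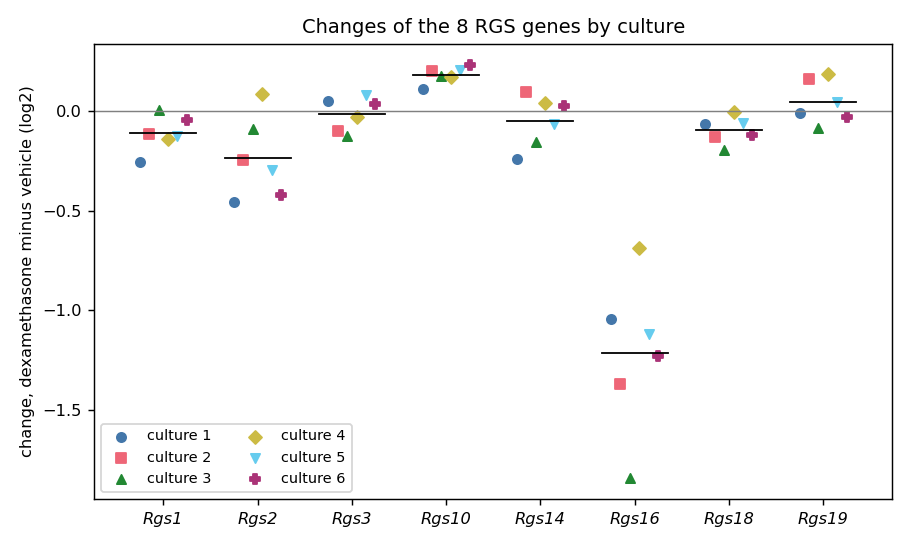
Change with dexamethasone (log2) of the 8 RGS genes in each culture, 1 symbol per culture, with a black line at the mean of the 6 and a grey line at 0. Rgs16 is spread from -1.84 in culture 3 to -0.68 in culture 4, while the 6 values of Rgs10 lie between 0.11 and 0.24 and those of the other 6 genes between -0.45 and 0.19.

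The vehicle arrays alone show how much each gene varied between untreated cultures, given here as a description. The SD over the 6 vehicle arrays was 0.29 for Rgs16, 0.29 for Rgs2 and 0.25 for Rgs1, larger than that of 94.5, 94.3 and 90.7% of genes tested, whose median was 0.125. That of Rgs10 was 0.03, with only 0.717% of genes below it, and that of Rgs18 was 0.10.

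Neutrophil markers also varied between cultures. Each gene's vehicle level was therefore set against the mean of 7 of them, S100a8, S100a9, Ly6g, Mpo, Ngp, Camp and Cxcr2. Each of the 7 lay above the negative control median on at least 6 of 12 arrays. Only S100a8 and S100a9 passed the negative controls' 95th percentile on any array. That mean was 7.60 in culture 2 and 8.19 in culture 3, and 8.54 to 8.84 in the other 4. S100a8 and S100a9 varied most between vehicle cultures, so they weigh most in its spread. Their SD was 1.19 and 1.01, beside 0.10 to 0.45 for the other markers of the mean. Rgs1 was high where the markers were high, with r = 0.90 over 6 cultures (two-sided exact permutation p = 0.00278, adjusted p = 0.025 over the 9 genes) and rho = 0.94 (exact p = 0.0167, adjusted p = 0.15). Without cultures 2 and 3, the farthest from the median, r was 0.71. Rgs2 gave r = 0.75 (exact p = 0.0722, adjusted p = 0.179) and rho = 0.89 (exact p = 0.0333, adjusted p = 0.15), and r = 0.67 without those cultures. Rgs18 ran the other way, with r = -0.86 (exact p = 0.0542, adjusted p = 0.179) and rho = -0.49 (exact p = 0.356, adjusted p = 0.4), but r was 0.94 without cultures 2 and 3, so the negative relation rests on them. For the other 6 genes adjusted p was 0.179 to 0.489 for r and 0.4 to 0.714 for rho, by the same exact permutation. The vehicle arrays of cultures 2 and 3 also had the lowest negative control medians, 6.17 and 6.15, beside 6.25 to 6.33 in the other 4. Whether Rgs1 or any other of these genes followed the markers or such differences between arrays was not tested.

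**Figure D3:**
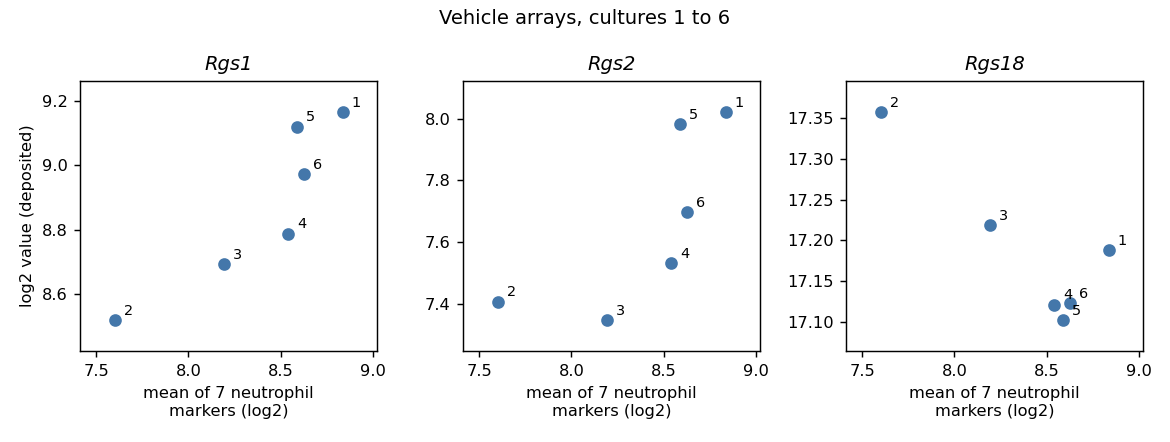
Vehicle level (log2) of Rgs1, Rgs2 and Rgs18 against the mean log2 value of 7 neutrophil markers, with a point per culture labelled 1 to 6. Culture 2 has the lowest marker level, 7.60, the lowest Rgs1, 8.52, and the highest Rgs18, 17.36.

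The other genes of G protein signalling were taken as 5 lists of 111 genes chosen by function, of which 106 had a value and 92 were tested. Of these 92, 6 rose and 11 fell, or 6.52 and 12.0%, beside 7.39% and 4.56% of all genes tested. Among those called, Rgs8, Gngt2, Ric8b, Grk3, Adcy5, Adcy7, Plcb1 and Pde3b passed the negative controls' 95th percentile on no array. The members and their lists share the arrays, and these shares are set side by side only: no list was tested against other genes.

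Among the other RGS and RGS-box genes, 1 of 14 tested fell and none rose (limma; 1 higher and 3 lower at an unadjusted p under 0.05), with a median change of -0.03 against -0.01 for all genes. The one that fell was Rgs8, the neighbour of Rgs16, from 6.72 ± 0.16 to 6.41 ± 0.09 (SD, n = 6), a change of -0.31 (SE 0.05, adjusted p = 0.00426, limma) seen in 6 of 6 cultures. Its groups overlapped and 1 dexamethasone array lay below the negative control median, and without cultures 2 and 3 its adjusted p was 0.0578 (limma) over a range of 0.000427 to 0.0578. Rgs12, a large relative of Rgs10 and Rgs14, was 9.13 ± 0.15 and 9.10 ± 0.04 (adjusted p = 0.732, limma). Of the 22 genes of this list 13 were at background on every array, under the median of its negative controls, among them Rgs13 and Rgs21, which lie between Rgs2, Rgs1 and Rgs18 and averaged 4.67 and 4.69. Rgs4, Rgs5, Rgs7, Rgs17, Rgs20 and Rgs22 were likewise too dim to be tested.

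Of 28 G protein subunits, the targets of the RGS proteins, 1 rose and 3 fell, with a median change of -0.01. Gnaq, the Gq alpha subunit that couples thrombin and thromboxane receptors to phospholipase C, fell from 12.01 ± 0.12 to 11.69 ± 0.14, a change of -0.32 (SE 0.04, adjusted p = 0.00168, limma). Gnaz, an inhibitory alpha subunit of platelets, fell by 0.26 (SE 0.06, adjusted p = 0.0302, limma), and the gamma subunit Gngt2 fell by 0.17 (SE 0.04, adjusted p = 0.0361, limma). The gamma subunit Gng11 rose from 12.94 ± 0.11 to 13.20 ± 0.05, a change of 0.27 (SE 0.05, adjusted p = 0.00655, limma). All 4 moved the same way in 6 of 6 cultures, and the groups of Gng11 and Gnaz did not overlap. The call of Gnaz was lost without culture 1, 3, 5 or 6 and that of Gngt2 without any 1 of the 6 cultures, and both were lost after centring on array medians and without cultures 2 and 3. Without the culture block the adjusted p of Gngt2 was 0.427 (limma), over a range of 0.0136 to 0.427. The main inhibitory subunit Gnai2 was 15.53 ± 0.04 and 15.56 ± 0.09 (adjusted p = 0.701, limma).

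Among Rasd1's partners and other modulators, 1 of 15 tested rose and 2 fell, with a median change of -0.03. Nos1ap, the adaptor that joins Rasd1 to neuronal nitric oxide synthase, rose in 6 of 6 cultures from 9.87 ± 0.15 to 10.25 ± 0.09, a change of 0.38 (SE 0.04, adjusted p = 0.000766, limma), with no overlap of the groups. The synthase itself, Nos1, was at background on every array, as was Rasd2, the closest relative of Rasd1, which averaged 4.70. Ric8b, a chaperone of the Gs alpha subunit, fell by 0.33 (SE 0.06, adjusted p = 0.00832, limma), and Ccdc88a, also called girdin, by 0.20 (SE 0.05, adjusted p = 0.0400, limma), each in 6 of 6 cultures. The call of Ccdc88a was lost without culture 1, 2, 3, 4 or 5, without cultures 2 and 3, after centring, without the filter, and without the culture block (adjusted p = 0.0767, limma, over a range of 0.0109 to 0.111).

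Receptor kinases mark active receptors for arrestin, a second way to end the signal. Of 7 kinases and arrestins tested 2 rose and none fell (limma; 0 lower at an unadjusted p under 0.05), with a median change of 0.07. Grk5 had lowest and highest values of 10.55 and 11.03 in vehicle and 11.08 and 11.90 in dexamethasone, so the groups did not overlap. Its change was 0.69 (SE 0.07, adjusted p = 0.000389, limma), 1.62-fold, in 6 of 6 cultures. Grk3 rose by 0.30 (SE 0.06, adjusted p = 0.0144, limma), but it read lower than the negative control median on all 6 vehicle and 5 of 6 dexamethasone arrays. With values floored at that median its change was 0.06 (adjusted p = 0.525, limma), over a range of 0.00459 to 0.525 in 15 settings, and the call was also lost without cultures 2 and 3. The arrestin Arrb1 was 11.24 ± 0.06 and 11.22 ± 0.11 (adjusted p = 0.901, limma).

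Of 28 effectors tested, 2 rose and 5 fell, with a median change of -0.01. With values floored at the negative control median 5 rose and 5 fell, and among genes above that median 4 rose and 5 fell. Both rises in the fit as deposited were adenylyl cyclases, the makers of cAMP: Adcy5 rose from 8.88 ± 0.10 to 9.50 ± 0.14, a change of 0.62 (SE 0.07, adjusted p = 0.000824, limma), and Adcy7 by 0.25 (SE 0.05, adjusted p = 0.00909, limma). Adcy6 was 10.90 ± 0.08 and 11.13 ± 0.25 (adjusted p = 0.119, limma). Adcy9 changed by -0.07 (SE 0.06, adjusted p = 0.547, limma). Without cultures 2 and 3 the call of Adcy7 was lost (adjusted p = 0.0824, limma, over a range of 0.00133 to 0.0824).

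The 5 falls were of 3 phosphodiesterases, 1 phospholipase and 1 kinase subunit. The cAMP phosphodiesterase Pde3a fell from 12.76 ± 0.10 to 12.30 ± 0.21, a change of -0.46 (SE 0.06, adjusted p = 0.002, limma), and its relative Pde3b by 0.32 (SE 0.07, adjusted p = 0.0221, limma). The cGMP phosphodiesterase Pde5a fell by 0.31 (SE 0.05, adjusted p = 0.00309, limma). Plcb1, a phospholipase C that Gq activates, fell from 8.03 ± 0.10 to 7.62 ± 0.14, a change of -0.41 (SE 0.04, adjusted p = 0.000405, limma). The fifth was Prkacb, a catalytic subunit of protein kinase A, which lies outside the rule for named genes and was named after its value was seen (-0.15, SE 0.04, adjusted p = 0.0472, limma). Each fell in 6 of 6 cultures, but the change of Pde3b in culture 3 was only -0.002. The groups of Pde3a and Pde3b overlapped. The call of Pde3b was lost without culture 1, 4, 5 or 6. That of Prkacb was lost without any 1 of the 6 cultures, without cultures 2 and 3, after centring and without the filter (adjusted p from 0.0103 to 0.138 over the settings, limma). Another phosphodiesterase, Pde7a, was higher in 6 of 6 cultures without passing the threshold (0.16, SE 0.05, adjusted p = 0.06285, limma).

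**Figure D4:**
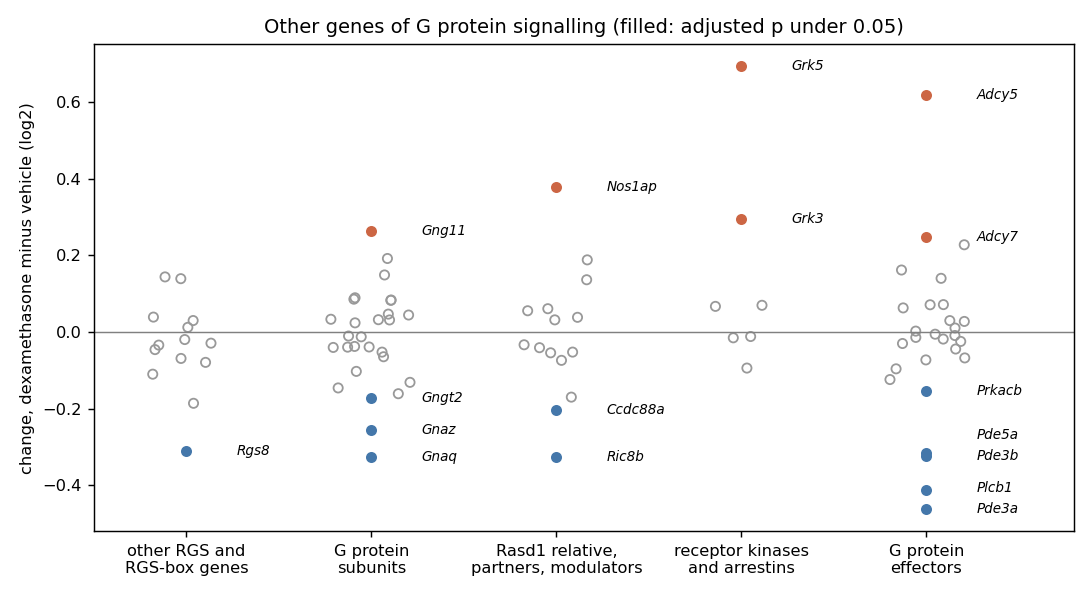
Change with dexamethasone (log2) of the 92 tested genes of the 5 lists, 1 circle per gene, spread sideways for legibility; filled and named circles passed an adjusted p under 0.05 (limma, over all genes tested), in orange for 6 rises and in blue for 11 falls. Grk5 and Adcy5 are highest, at 0.69 and 0.62, and Pde3a is lowest, at -0.46.

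The genes whose profile over the 12 arrays was most like that of Rasd1 were Dpy19l4 and Lrp8 (r = 0.9986 each), Efcab14 (0.998), Bnip3 (0.9975) and Havcr2 (0.997). They rose 4.52-fold, 10.5-fold, 1.89-fold, 10.4-fold and 4.79-fold. The measure takes no account of the size of a change. Havcr2 encodes the immune checkpoint receptor TIM-3. For Rgs16 the closest were 2700038G22Rik (r = 0.963), Tmem123 (0.961), Fgfr1op2 (0.956), Spata13 (0.955) and the growth factor Angpt1 (0.947). They were lower with dexamethasone by 0.40, 0.23, 0.17, 0.37 and 0.75. All these genes share the 12 arrays and the step between treatments with the gene they resemble.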

How the data were processed

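RNA from 12 samples was measured on 1-colour arrays (50 ng of RNA, biotin label, per the labels' protocols). The authors deposited 1 log2 value per probe set and array, for 72688 probe sets. The sources used here do not give their background correction, normalization or build. That the scale is log2 rests on the range, 2.07 to 19.93. Array medians lay between 5.57 and 5.67, so values were used as deposited. A probe set was named where the annotation gave it 1 distinct symbol (30604 probe sets), updated by gene number through RefSeq's GRCm38.p6 table, and of several probe sets for a gene the brightest on average over the 12 arrays was kept. Genes above their array's 25th percentile on at least 6 of 12 arrays were tested (24265 of 30142).

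Changes were fitted across genes with limma 3.58.1 under R 4.3.3 (lmFit, eBayes, two-sided, Benjamini-Hochberg over all genes tested), with culture as a block because the labels state that each culture was divided. Deviations from the group means of arrays with the same number correlated with r of 0.0493 to 0.247 (mean 0.157), and over 0.1 in 4 of 6 pairs. The code was tested on simulated data. SDs are over the 6 cultures, and the number of arrays limits the precision. The members and gene lists were chosen with earlier results of these data known. Named are all members and up to 6 genes past the threshold per list by size of change. The 5 genes most like Rasd1 and Rgs16 by Pearson r over 12 arrays are named too, with the markers and targets given. Prkacb, Tubb1, Gp9, Cpa3, Mcpt8, Ccr2, Lyz2, Camp and Ltf were named after their values were seen. Rgs12, Gnai2, Arrb1, Adcy6, Adcy9, Pde7a, Nos1, Rasd2 and the dim RGS genes of the lists were not past the threshold or not tested, and are named outside this rule. Correlations and exact permutations used SciPy 1.17.1. Alternatives covered the block, scaling, background floor, probe set choice, filter, variance model and each culture left out; leaving out cultures 2 and 3 together was chosen after seeing the data.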

Additional observations from a re-analysis of the deposited data

How the results depend on the processing

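Directions of Rasd1, Rgs1, Rgs2, Rgs10, Rgs16, Rgs18 and Rgs19 were kept under all 16 other settings, and those of Rgs3 and Rgs14, at background, in 9 and 14 of 15; the filter above the negative control median gave them no value, and the floor by itself gives such dim genes a change of 0.04. Their ranges were 5.26 to 5.56 for Rasd1, -1.32 to -1.02 for Rgs16, 0.15 to 0.21 for Rgs10, -0.17 to -0.06 for Rgs18, -0.30 to -0.19 for Rgs2 and -0.16 to -0.08 for Rgs1. Genes called numbered 2900, of which 61.9% were higher. That share was 44.9% once arrays were quantile normalized and 70.3% once they were centred. Leaving out 1 culture gave 1878 (culture 3) to 2331 genes, and leaving out cultures 2 and 3 gave 1269; fewer samples are fitted there. After quantile normalization 6 of the 9 genes were called in place of 3, and 3 other RGS genes in place of 1. Other RGS genes called were 2 with the floor, 2 among genes above the negative control median, and 0 without cultures 2 and 3 (limma; 2 at an unadjusted p under 0.05). In place of 4 G protein subunits, 2 were called after centring, 2 without cultures 2 and 3, 6 after quantile normalization, 6 with the floor and 6 above the negative control median, and 2 to 3 without any 1 culture. Of 2 kinases, 1 was called with the floor, above the negative control median, and without cultures 2 and 3. Effectors called were 5 to 6 without any 1 culture and 10 with the floor (5 higher, 5 lower), in place of 7 (2 higher, 5 lower). With no replicate block the call of 3 members held and 2452 genes were called (1534 higher, 918 lower). Among the named genes followed over the settings, the calls of Gngt2, Ccdc88a and Mcpt8 were lost there. With culture as a random effect, those of Gngt2 and Mcpt8 were lost. Among the followed genes past the threshold no change reversed under the settings run. The neutrophil markers and the genes most like Rasd1 and Rgs16 were not followed in this way. Dim genes limit the reading: where all arrays lie under the negative control median, a real change may not show and a measured one is uncertain.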
